A study of Mus musculus with 8 samples.

Results

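The Usp genes, which encode the ubiquitin-specific proteases, were examined for H3K36me3 in mouse embryonic stem cells with and without knockdown of Setd2. The family was taken as all protein-coding genes of the RefSeq annotation (GRCm38.p6, the build called mm10) whose symbol is Usp followed by a number, with or without a suffix. This gave 56 of 21887 protein-coding genes, with unplaced sequence left out. The rule also takes in Usp6nl, whose protein is a GTPase-activating protein for Rab proteins and not a deubiquitinase.

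Ubiquitin-specific proteases are cysteine proteases that remove ubiquitin from other proteins and form the largest family of deubiquitinases. By trimming ubiquitin they spare substrates from the proteasome, and some of them act on ubiquitylated histones, at DNA lesions, on endosomes or at mitochondria. Their roles are known mainly from human cells. H3K36me3 is laid down on the bodies of transcribed genes by Setd2, which travels with elongating RNA polymerase II, so a covered gene body is usually read as a transcribed gene.

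Knockdown cells carried a doxycycline-inducible knockdown of Setd2 and received 1 µg/ml doxycycline for 4 days. Control cells are labelled Dox - with the genotype control, and the growth protocol given for all samples describes the inducible line. Both conditions were feeder-free sphere cultures in 2i medium, with 1 µM PD0325901 (a MEK inhibitor), 3 µM CHIR99021 (a GSK3 inhibitor) and 1000 U/ml leukaemia inhibitory factor. The 8 libraries comprise 2 H3K36me3 ChIP and 2 input libraries in each condition. The authors merged the 2 replicates before they called peaks, so each condition has 1 peak list, there is no spread between replicates and no test between conditions was made. In bulk chromatin, fewer cells with the mark and less of the mark per cell cannot be told apart.

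The knockdown list held 3040 peaks and the control list 30634. The caller kept 29416169 ChIP tags in knockdown cells and 36244210 in control cells, and the smallest peak held 30 tags in the knockdown list and 32 in the control list. The part of the lower knockdown depth in a missing peak was not tested. Of 16 naive pluripotency genes, 12 were covered over at least 50% of their length in control cells, against 17.0% of all protein-coding genes. Fgf4 was covered over 100% and Nanog over 98.3%. Counted by peak midpoints, 4 of the 16 had a knockdown and 13 a control peak, against 4.95% and 41.2% of all protein-coding genes. Klf2 and Klf5 had the most left in knockdown cells, 41.3% against 95.1% in control cells for Klf2 and 16.8% against 82.8% for Klf5. Of 10 fibroblast genes, 1 had a knockdown and 2 a control peak, with at most 7.67% and 8.67% covered, both at Fn1. Of 13 germ layer and trophoblast genes, 0 had a knockdown and 4 a control peak, Tfap2c (58.5%) and Eomes (39.8%) being the most covered in control cells. For the last 2 lists too, the shares of all genes were 4.95% and 41.2%. The exact 95% binomial intervals of their control shares, 2.52% to 55.6% and 9.09% to 61.4%, both take in 41.2%.

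A gene was counted as marked when it contained the midpoint of 1 peak or more. In knockdown cells 2 of the 56 Usp genes were marked, Usp24 and Usp7, and in control cells 41 of 56 were. Over all protein-coding genes the shares were 4.95% in knockdown cells and 41.2% in control cells. The 2 genes correspond to 3.57% of the family (95% exact binomial interval 0.435 to 12.3), and the 41 genes to 73.2% (59.7 to 84.2). These intervals, like those that follow, cover counting error only. Both genes marked in knockdown cells were also marked in control cells, so 2 of 41 kept a peak (4.88%, 0.596 to 16.5), against 10.6% of all marked genes. No Usp gene was marked in knockdown cells alone, against 0.585% of all genes. At so low a share this does not set the family apart. By midpoints, a gene can also count as marked in knockdown cells alone while control peaks cover it, as Klf2 does (95.1% in control cells).

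Summed over the family, 14.5 kb lay under knockdown peaks and 655 kb under control peaks, out of 3247 kb of gene length. That is 0.445% in knockdown cells and 20.2% in control cells, compared with 0.259% and 9.37% of the summed length of all protein-coding genes. Usp24 alone held 13140 bp of the knockdown coverage and Usp7 the remaining 1312 bp. Each of the other 54 members had 0 bp under knockdown peaks.

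**Figure D1:**
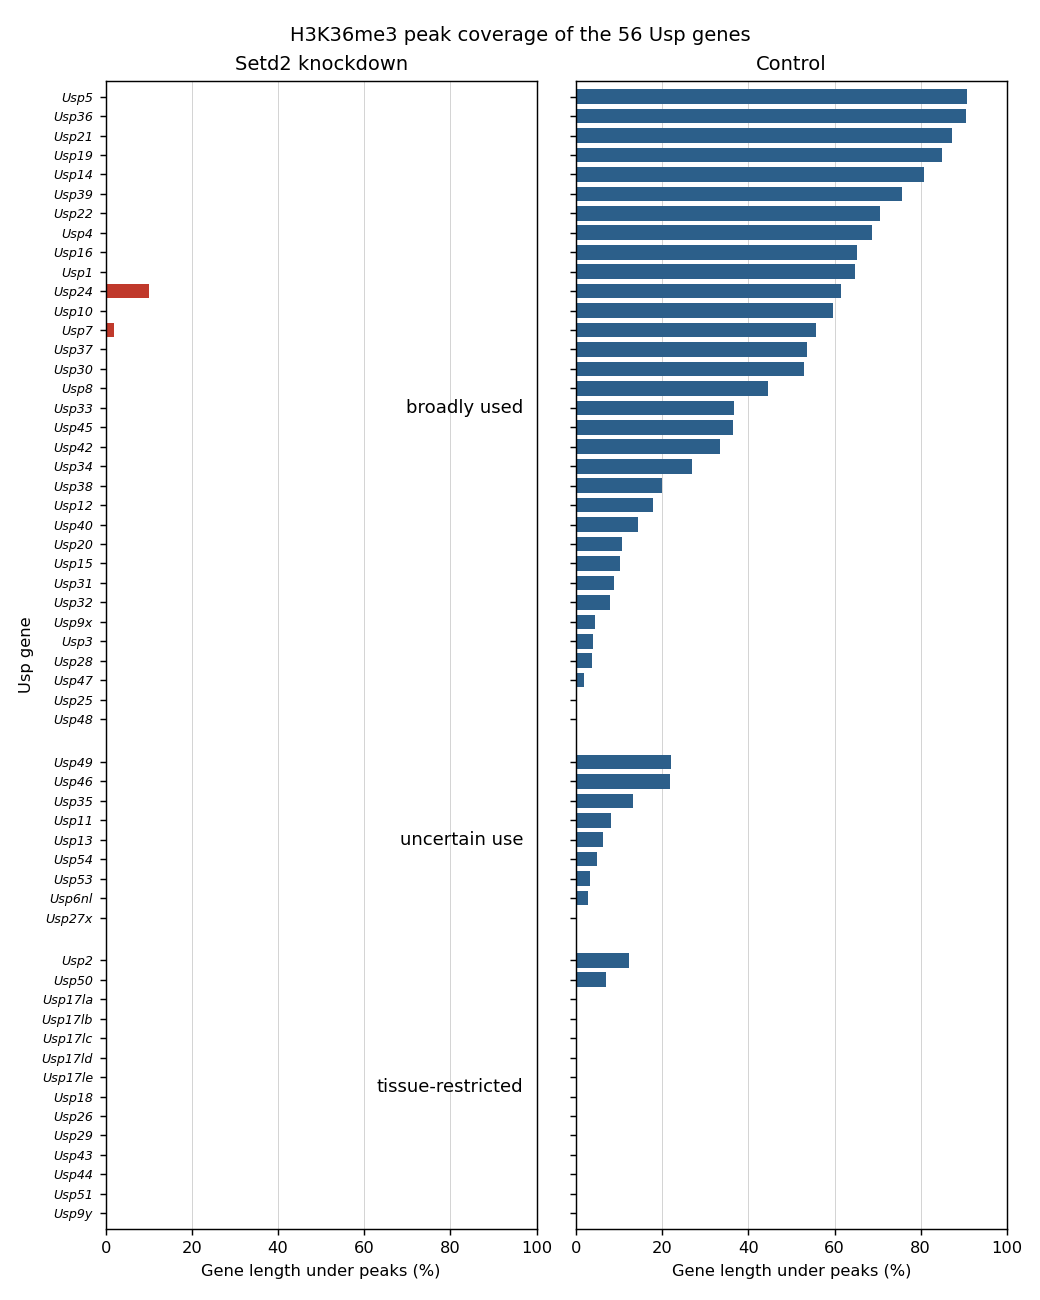
Percent of each gene's length under H3K36me3 peaks for the 56 Usp genes in Setd2 knockdown (left) and control cells (right), with genes grouped by how widely they are used and each bar standing for 1 gene in 1 merged peak list. Usp24 (10.1%) and Usp7 (1.92%) are the genes with a bar in knockdown cells, while control bars reach 90.8% at Usp5 and are 0 for 12 of the 14 tissue-restricted genes.

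The broadly used members were set against the tissue-restricted ones. The sorting came from general knowledge of where each gene is used, by hand and with earlier results of these data known, and 9 members of uncertain use were kept apart. In knockdown cells, 2 of 33 broadly used genes (6.06%, 0.743 to 20.2) and 0 of 14 tissue-restricted genes (0 to 23.2) had a peak. Both intervals take in the 4.95% of all protein-coding genes, so these counts do not set either class apart. In control cells, 31 of 33 broadly used genes (93.9%, 79.8 to 99.3) and 2 of 14 tissue-restricted genes (14.3%, 1.78 to 42.8) were marked. The share of all protein-coding genes was 41.2%, which lies within the interval of the tissue-restricted genes. The classes also differ in length, with a median of 52114 bp over the broadly used and 23711.5 bp over the tissue-restricted genes. Of all protein-coding genes, 21.3% were marked below 10 kb and 53.1% at 10 to 50 kb. The 14 include the short Usp17l genes, which are similar in sequence, so the interval counts related genes as separate. The part of length in this contrast was not tested. The median control-covered share was 36.6% over the broadly used genes and 0% over the tissue-restricted genes, as it was over all protein-coding genes. Of the 9 genes of uncertain use, 8 had a control peak, with a median coverage of 6.36% over the 9.

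**Figure D2:**
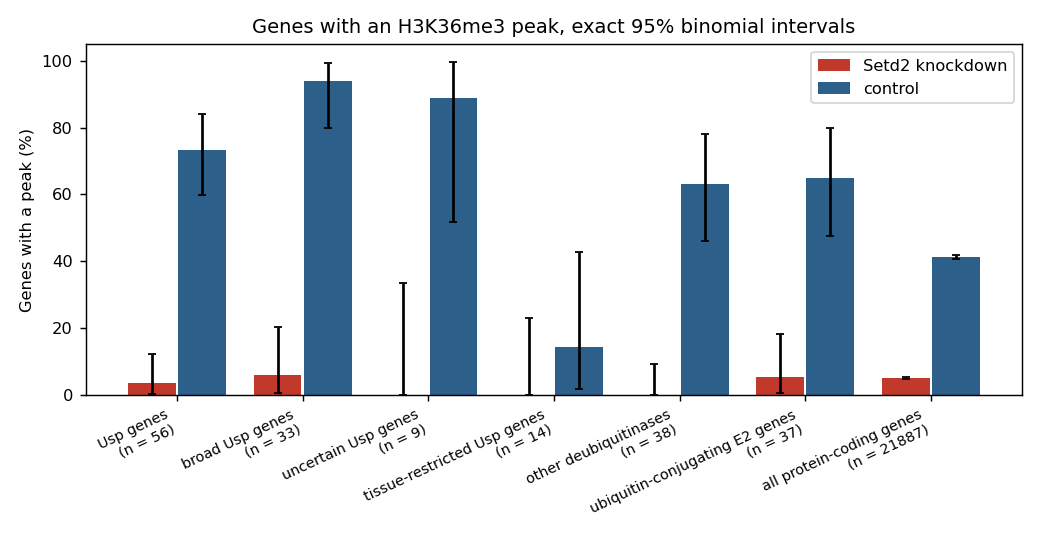
Percent of genes with a peak midpoint in Setd2 knockdown (red, left of each pair) and control cells (blue) for the Usp genes, their 3 classes of use, the other deubiquitinases, the E2 genes and all protein-coding genes, with exact 95% binomial intervals. The broadly used Usp genes stand at 93.9% and the tissue-restricted ones at 14.3% in control cells, and the knockdown bars are at 6.06% or lower.

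The 12 tissue-restricted genes with no peak in either list include the 5 Usp17l genes of chromosome 7 (Usp17la, Usp17lb, Usp17lc, Usp17ld and Usp17le), short cytokine-inducible genes that resemble each other closely in sequence. Usp26, an X-linked gene of the testis, Usp9y, a Y-linked gene of the male germ line, and Usp18, which removes the ubiquitin-like protein ISG15 and responds to interferon, also had no peak. So did Usp29, Usp43, Usp44 and Usp51. Usp29 is an imprinted gene, and Usp44 and Usp51 have been linked to the removal of ubiquitin from histones. The 2 tissue-restricted genes with a control peak had 1 short peak each. Usp2, which is linked to the circadian clock, was covered over 12.4% of its length by a peak of 3546 bp. Usp50 was covered over 7.02% by a peak of 2054 bp at its 3' end. This peak ran 481 bp past the 3' end of Usp50 toward Usp8, which lies 1735 bp away on the opposite strand and whose last control peak ran 511 bp past its own 3' end.

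Among the broadly used genes, Usp25 and Usp48 had no peak in either list. Usp27x, a single short gene on the X chromosome whose product joins a histone deubiquitinating module, was the member of uncertain use without a peak. Promoter sequence was not used to choose or sort the members and was compared next. Promoter windows of 300 bases (250 before and 50 after the listed start) were at hand for 43 of the 56 genes. The CpG ratio, the observed count of CpG dinucleotides over the count expected from the C and G content, had a median of 0.89 in the 25 windows of broadly used genes, of 0.20 in the 10 of tissue-restricted genes and of 0.58 over 17492 protein-coding genes. Across all of those genes the median was 0.79 where the gene had a control peak and 0.30 where it had none. Usp48 (1.16) and Usp25 (1.15) had CpG ratios in the upper range of the broadly used genes although neither had a peak. Usp2 (0.86) and Usp9y (0.82) had the highest ratios of the tissue-restricted windows, and Usp2 was marked while Usp9y was not. The Usp17l windows at hand, of Usp17la, Usp17lb, Usp17lc and Usp17ld, had ratios of 0 to 0.08. These similar genes are among the 10 tissue-restricted windows and pull the median of that class down. The rest of the 10 were Usp50 (0.12), Usp51 (0.28), Usp26 (0.40) and Usp29 (0.58), besides Usp2 and Usp9y.

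The 150 bases before the listed start are given for 6 members to show this range, 5' to 3' on the strand of the gene, from RefSeq on GRCm38.p6 and with each CpG in capitals. Usp24 held the most knockdown coverage, and Usp19 (84.9%) and Usp36 (90.6%) were covered in control cells alone. Usp48 is a broadly used gene without a peak, and Usp29 and Usp17la are tissue-restricted genes without a peak. The windows lie at chr4:106316063-106316212 (plus strand, Usp24), chr9:108490526-108490675 (plus strand, Usp19), chr11:118290245-118290394 (minus strand, Usp36), chr4:137594022-137594171 (plus strand, Usp48), chr7:6730433-6730582 (plus strand, Usp29) and chr7:104856866-104857015 (plus strand, Usp17la).
Usp24: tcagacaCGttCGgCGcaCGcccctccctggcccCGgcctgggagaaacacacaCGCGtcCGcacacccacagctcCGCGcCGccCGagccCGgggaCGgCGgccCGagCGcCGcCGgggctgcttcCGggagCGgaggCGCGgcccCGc
Usp19: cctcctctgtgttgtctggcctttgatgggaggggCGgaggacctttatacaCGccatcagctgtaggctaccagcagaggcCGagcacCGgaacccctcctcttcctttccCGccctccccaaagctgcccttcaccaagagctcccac
Usp36: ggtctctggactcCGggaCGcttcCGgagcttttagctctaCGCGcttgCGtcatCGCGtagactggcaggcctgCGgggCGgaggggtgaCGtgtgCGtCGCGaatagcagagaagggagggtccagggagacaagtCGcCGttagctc
Usp48: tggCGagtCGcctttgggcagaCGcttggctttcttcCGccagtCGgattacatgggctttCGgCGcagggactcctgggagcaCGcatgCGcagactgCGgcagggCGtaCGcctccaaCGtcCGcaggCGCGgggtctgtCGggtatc
Usp29: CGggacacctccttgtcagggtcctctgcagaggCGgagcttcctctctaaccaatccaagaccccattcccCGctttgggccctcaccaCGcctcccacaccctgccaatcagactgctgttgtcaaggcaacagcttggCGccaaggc
Usp17la: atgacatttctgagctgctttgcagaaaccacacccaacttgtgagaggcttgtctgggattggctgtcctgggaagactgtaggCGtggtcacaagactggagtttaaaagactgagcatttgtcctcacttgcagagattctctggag
These stretches hold 24 CpG dinucleotides at Usp24, 5 at Usp19, 16 at Usp36, 17 at Usp48, 5 at Usp29 and 1 at Usp17la. Usp19 thus had few CpG dinucleotides in this stretch and a strong control peak, and Usp48 had many and no peak.

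Short motifs were searched on both strands of the 300-base windows, and a match describes letters and no binding. The SP1 box GGGCGG was present in 20 of 25 windows of broadly used genes and in 2 of 10 of tissue-restricted genes, compared with 46.3% of all protein-coding windows. The CCAAT box CCAAT was present in 4 of the 25 and 7 of the 10, against 39.0% of all windows, and 4 of those 7 belong to the similar Usp17l genes. The NRF1 core was found in 4 of the 25 and 0 of the 10 (6.60% of all), and the ETS core CCGGAAG in 7 of the 25 and 0 of the 10 (11.9% of all). A TATA box (TATAAA) was found in 2 of the 25 and 3 of the 10 (13.3% of all). All 3 are the similar genes Usp17lb, Usp17lc and Usp17ld. A YY1 core was found in 0 of the 25 and 1 of the 10 (0.972% of all). A window was counted once for each motif it held, also where matches of different motifs overlapped. No window of the 43 had a base under a peak of either list, against 1.42% of all windows in control cells.

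**Figure D3:**
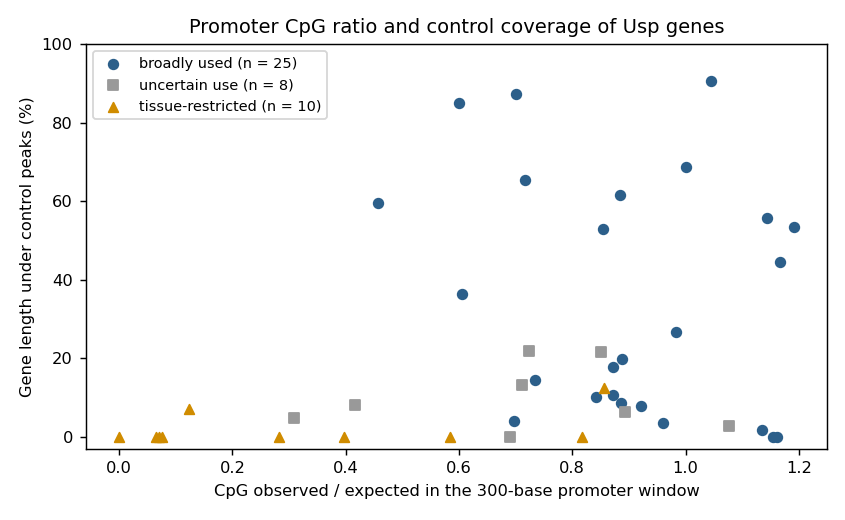
CpG observed over expected in the 300-base promoter window (x axis) against the percent of gene length under control peaks (y axis) for the 43 Usp genes with a window, with points coloured by class of use. Most tissue-restricted genes sit at low CpG ratios and 0% coverage, and Usp48 (1.16) and Usp25 (1.15) sit at high ratios and 0% coverage.

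Usp24, which encodes a large deubiquitinase, had the largest share of its length under knockdown peaks in the full list. It lies on chromosome 4 at 106315980 to 106446613. It was covered over 10.1% of its length by 3 peaks in knockdown cells and over 61.5% by 15 peaks in control cells, and 1.71% of all genes were covered over 10% or more in knockdown cells. The 3 knockdown peaks spanned 6941, 2084 and 4115 bp and lay 68778 to 86833 bp from the listed start, in the middle of the gene. All of their 13140 bp were also under control peaks, and they made up 16.4% of the control-covered sequence of the gene. They sat within the 2 control peaks with the highest enrichment of the whole family, with folds over local background of 11.82 and 11.04 in the authors' deposited table. Each of the other 13 control peaks of Usp24 had a deposited fold of 5.97 or lower, and none of these was overlapped in knockdown cells. Scaled to 1000000 kept tags, the 3 knockdown peaks held 1.69, 1.66 and 1.45 tags per kb, and the 2 control peaks around them held 2.64 and 2.12. Each density covers the peak's own extent, so the values do not compare the same bases. The authors' own BED lists hold only peaks with an empirical FDR of 5% or less. There Usp24 kept 1 of the 3 knockdown peaks and was covered over 1.60% in knockdown cells, against 47.5% in control cells. The knockdown peaks of 6941 and 4115 bp had an FDR of 25% and 7.27%, and the control peak of fold 11.04 had 11.76%. The knockdown peak of Usp7 has an FDR of 1.6% and stays in the BED list. By that list the covered share in knockdown cells was thus larger at Usp7 (1.92%) than at Usp24.

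Usp7, which stabilises the p53 regulator Mdm2 and the maintenance DNA methyltransferase machinery, was the other gene with a knockdown peak. It lies on chromosome 16 at 8688722 to 8757067 and was covered over 1.92% in knockdown cells, against 55.8% in control cells. Its knockdown peak was 1312 bp long with 50 tags and a deposited fold of 3.89. That peak lay near the 3' end, from 46374 to 47685 bp after the listed start, inside a control peak of 28909 bp with a deposited fold of 7.16. This was the longest control peak over any Usp gene. The other 5 control peaks of Usp7 had no knockdown peak over them, and 3 of the 5 lay upstream of the listed start, at -17348 to -11561 bp, where the gene span of the annotation still runs.

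Among the 169 control peaks that touched a Usp gene, 3 were overlapped by a knockdown peak, against 6.52% of all control peaks. All 3 were above 10 kb in length, a size reached by 14 of the 169, and 20.8% of all control peaks above 10 kb were overlapped. By enrichment, both Usp peaks with a deposited fold of 9 or more were overlapped, compared with 77.3% of such peaks in the whole control list. At a fold of 7 or more, 3 of 5 were overlapped, compared with 35.7% in the whole list. Both fold limits were chosen after the values had been seen. The other 2 of the 5 belonged to Usp19 (8.87) and Usp36 (7.06).

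**Figure D4:**
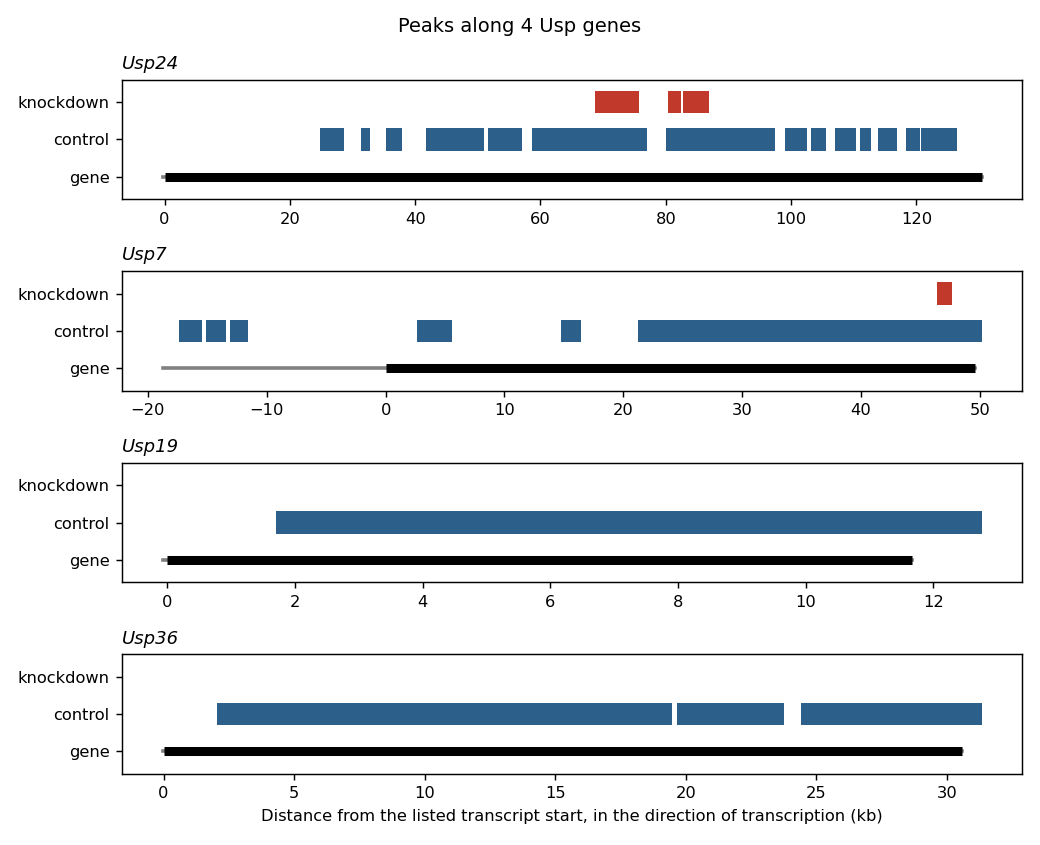
Peaks of Setd2 knockdown (red, above) and control cells (blue, below) along Usp24, Usp7, Usp19 and Usp36, drawn to scale in kb from the listed transcript start in the direction of transcription. The black bar runs from the listed start to the 3' end and the grey line marks the rest of the annotated gene span. The 3 knockdown peaks of Usp24 lie between 68778 and 86833 bp, that of Usp7 near its 3' end, and Usp19 and Usp36 have none.

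The remaining marked members had control peaks alone. They are given by role, and every value is the percent of gene length under control peaks, with 0% in knockdown cells. In all, 15 Usp genes were covered over at least 50% in control cells, or 26.8% of the family compared with 17.0% of all genes. Of these 15, Usp24 and Usp7 had a knockdown peak, or 13.3% against 12.8% of all genes so covered. The counts by role stand beside a control peak in 41.2% of all genes, and in 55.7% within the middle 50% of Usp gene lengths. Of 9 histone and chromatin genes, Usp7 among them, 6 had a control peak and 4 were covered over at least 50%. Of 8 genes for membrane traffic, the endoplasmic reticulum and mitochondria, 8 had a control peak and 2 were covered over at least 50%.

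Of the 3 genes for ubiquitin recycling and the proteasome, 3 had a control peak and 2 were covered over at least 50%. Usp5, also called isopeptidase T, takes apart free ubiquitin chains and had the highest coverage of the family at 90.8%, under a single peak of 13496 bp with a deposited fold of 5.83. It lies on chromosome 6 at 124815019 to 124829484. Usp14, which works on the proteasome, was covered over 80.75% by 4 peaks, the longest of 13421 bp (chromosome 18, 9993615 to 10030149). Usp13, a relative of Usp5 of uncertain use in these cells, was covered over 6.36%.

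Of the 4 genes tied to splicing and the nucleolus, 4 had a control peak and 3 were covered over at least 50%. Usp36, a nucleolar enzyme, was covered over 90.6% (chromosome 11, 118259651 to 118290260) by 3 peaks with 1823 tags that came to within 2053 bp of its listed start. Usp39 is a component of the splicing tri-snRNP that lacks deubiquitinase activity, and it was covered over 75.7% by 4 peaks (chromosome 6, 72318676 to 72345208). Usp4 and Usp15 are close relatives that act on spliceosomal proteins, and 68.6% of Usp4 (7 peaks, chromosome 9, 108346564 to 108392545) and 10.3% of Usp15 were covered.

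Among the genes whose products act on histones, Usp21 was covered over 87.4% by a single peak of 5450 bp (chromosome 1, 171281949 to 171287961), and its deposited fold of 3.40 was the lowest of the 41 marked genes. Usp22, the deubiquitinase of the SAGA coactivator complex, was covered over 70.5% by a single peak of 16852 bp with a deposited fold of 6.52 (chromosome 11, 61151781 to 61175059). Usp16, which removes ubiquitin from histone H2A, was covered over 65.3% by 5 peaks, 4 of them with their midpoint in the gene (chromosome 16, 87454985 to 87483515) and overlaps the chaperonin gene Cct8, itself covered over 84.7%. Usp49, linked to H2B, had 21.9% under a single peak of 13142 bp, while Usp3, linked to H2A, had 4.03%.

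Of the 7 genes of DNA repair, replication and p53 control, 6 had a control peak and 3 were covered over at least 50%. Usp1, which deubiquitylates the Fanconi anaemia protein FANCD2, was covered over 64.8% by 2 peaks (chromosome 4, 98923810 to 98935543), 1 of them of 7008 bp and the other with its midpoint past the gene. Usp10, a partner of G3bp1 that also acts on p53, was covered over 59.5%, and Usp37, which acts in the cell cycle, over 53.5% by 14 peaks, 13 of them with their midpoint in the gene. Usp45, tied to nucleotide excision repair, had 36.5%. Usp28, a stabiliser of Myc, had 3.60% and Usp47, tied to base excision repair, had 1.90%, each under a single peak.

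For membrane traffic, the endoplasmic reticulum and mitochondria, Usp19 stood highest. Usp19 has a form anchored in the endoplasmic reticulum and was covered over 84.9% (chromosome 9, 108490607 to 108502337) by a single peak of 11062 bp with 905 tags. That peak has an empirical FDR of 20% in the authors' deposited table, so the authors' BED list leaves it out and Usp19 is covered over 0% there. Usp30, which opposes mitophagy at the outer mitochondrial membrane, had 52.9%, and Usp8, which acts in endosomal sorting, had 44.5%. The relatives Usp33 and Usp20 had 36.6% and 10.6%. Usp35 (13.3%), Usp32 (8.0%) and Usp6nl (2.67%) had less.

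Of the 25 genes of signalling, the germ line and other roles, 14 had a control peak and 1, Usp24, was covered over at least 50%. Usp42 had 33.5%, and Usp34, a regulator of Wnt signalling, had 26.8% under 20 peaks, 19 of them with their midpoint in the gene, which was the highest count of the family. The relatives Usp46 and Usp12, both activated by Wdr48, had 21.7% and 17.9%. Usp38 had 19.9%, Usp40 14.4%, Usp31 8.76% and Usp11 8.24%. Usp54 and Usp53 had 4.93% and 3.25%. Usp9x, the X-linked relative of Usp9y, is a large gene with wide substrates and had 3 peaks over 4.41% of its length.

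Peak density along the gene span was highest at Usp33, with 18.97 control peaks per 100 kb, and lowest among marked genes at Usp47, with 1.14. Usp24 had 2.30 and 11.5 peaks per 100 kb in knockdown and control cells. The 9 control peaks of Usp33 were at most 2787 bp long. Usp genes were long, with a median of 48.0 kb against 17.2 kb over all protein-coding genes. Within the middle 50% of Usp gene lengths, 23 of 28 Usp genes had a control peak, compared with 55.7% of all genes in that range. In the same range 1 of the 23 kept a peak, compared with 10.5%. The median control-covered share of marked Usp genes was 59.5% at 10 to 50 kb (19 of 22 genes marked), 12.4% at 50 to 100 kb (14 of 16 marked) and 8.0% at 100 kb or longer (7 of 10 marked). The same medians over all protein-coding genes were 44.0%, 17.9% and 4.73%, so the Usp median was higher in the shortest and the longest of these classes and lower in the middle one. Below 10 kb, 1 of 8 Usp genes was marked, or 12.5%, against 21.3% of all genes.

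The direction of transcription was known for 32 of the 41 marked Usp genes, from the listed transcript starts. The marked genes left out were Usp5 (90.8% covered in control cells), Usp14 (80.75%), Usp39 (75.7%), Usp22 (70.5%), Usp1 (64.8%), Usp33 (36.6%), Usp42 (33.5%), Usp9x (4.41%) and Usp53 (3.25%). Several of the most covered members are thus missing from the values below, and the effect of this was not tested. Each gene of known direction was cut into 10 equal bins from the start to the 3' end. Mean control coverage of the Usp genes was 6.28% in the first bin and 48.1% in the last bin, 0% in the 1 kb before the start and 36.1% in the 1 kb after the end. Over 6791 marked protein-coding genes of 5 kb or longer the values were 8.79%, 53.3%, 1.90% and 37.0%. In the fourth bin the Usp genes averaged 26.0%, against 39.4% over all of those genes. In knockdown cells the Usp mean was 0% in every bin except the sixth (1.66%), the seventh (1.49%) and the last (0.826%), which come from Usp24 and Usp7.

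**Figure D5:**
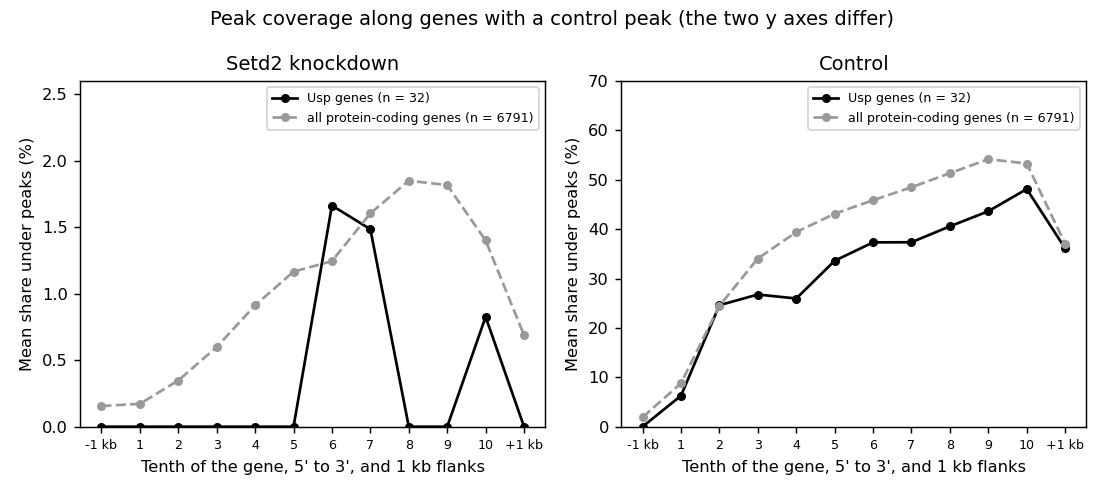
Mean percent under peaks in 10 equal bins of the gene, from the 5' to the 3' end with 1 kb flanks, for 32 Usp genes (black) and 6791 protein-coding genes (grey) with a control peak, in Setd2 knockdown (left) and control cells (right), on different y axes. Control coverage of the Usp genes is 6.28% in the first bin and 48.1% in the last, and knockdown coverage is at most 1.66%.

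The first covered base lay a median of 15566 bp after the listed start of the 32 Usp genes of known direction, or 31.4% of the way along. Over all marked genes of known direction it lay at 4322 bp and 22.9%. The 41 marked Usp genes had a median length of 52114 bp, against 25829 bp over all marked genes. Neither these positions nor the bins above were matched for length. The first covered base came earliest at Usp21 (760 bp), Usp19 (1697 bp) and Usp36 (2053 bp). At Usp28, Usp3 and Usp50 the mark began only after 96.4%, 94.8% and 93.0% of the gene. No start of the 32 was under a control peak, against 1.49% of all marked genes of known direction. The 3' end was under a control peak in 14 of the 32, or 43.8%, compared with 47.6% of all marked genes. These 14 peaks ran past the annotated 3' end by a median of 1133 bp, against 1103 bp over all marked genes. The longest run, 10440 bp at Usp16, went through the overlapping Cct8.

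Other genes of the ubiquitin system were set beside the family. Of 38 deubiquitinases of other families, 0 had a knockdown peak and 24 a control peak (63.2%). Over all protein-coding genes the shares were 4.95% and 41.2%. So 0 of 24 kept a peak (exact upper bound 14.2%), against 2 of 41 Usp genes. The 10.6% of all marked genes that kept one lies below that bound. Uchl4, a ubiquitin carboxy-terminal hydrolase gene, was covered over 100% and Pan2 over 86.3% in control cells. Of 37 ubiquitin-conjugating E2 genes, 2 had a knockdown peak (5.41%) and 24 a control peak (64.9%). Ube2c, the E2 of the anaphase-promoting complex, had the most knockdown coverage of these, 52.0% in knockdown and 86.7% in control cells. Ube2z (92.2%) and Ube2s (90.9%) were the most covered E2 genes in control cells and had no knockdown coverage. Ube2s held no midpoint of a control peak, so it is not among the 24 E2 genes counted with one. The difference between these lists and the Usp genes was not tested.

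Of 11 genes for cofactors of Usp proteins, 1 had a knockdown peak (9.09%) and 8 a control peak (72.7%), against 4.95% and 41.2% of all genes. Sart3, which brings Usp4 and Usp15 to the spliceosome in human cells, was covered over 4.96% in knockdown cells and 0% in control cells, while Usp4 and Usp15 had no knockdown peak. G3bp1, the partner of Usp10, had 0% in knockdown and 81.0% in control cells. Atxn7l3, which belongs to the deubiquitinating module of Usp22, had 0% and 70.3%.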

How the data were processed

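H3K36me3 ChIP and input libraries (2 replicates each, knockdown and control) were used, grouped by the titles in the labels, which do not say whether replicates came from separate cultures. The submitters' processing notes name FastQC 0.11.5, Bowtie 1.1.2 and mm10. Peak calling was done by the authors with MACS 1.4.2, per the file headers, on merged replicates against merged inputs (p cutoff 1e-05, 1 tag kept per position). Per peak they deposited a count of tags, a score (minus 10 times the log10 of p), a fold, which is a ratio to local background, and an FDR in percent. The authors' BED lists hold the peaks of these tables with an FDR of 5% or less (2961 of 3040 in knockdown, 30595 of 30634 in control cells), with the same fold ratio as deposited. The full tables were used, and the stricter lists as an alternative. These values are the authors' own and describe peaks within a list only.

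Gene spans came from RefSeq (GRCm38.p6) and strands and listed starts from its promoter table (most 5' start per gene). Coverage is the share of a gene's bases that lie under peaks, in percent. The coverage code was tested on simulated intervals. Shares have exact Clopper-Pearson 95% intervals. Python 3.11.15, numpy 2.4.6, pandas 2.3.3 and scipy 1.17.1 were used. All Usp genes are named. From each other list, the 2 members most covered in knockdown and in control cells are named, except for an item that is not reported here. The members, lists and classes of use were chosen with earlier results of these data known. Alternatives were the rule for a marked gene, peak thresholds, equal peak numbers and the genes used.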

Additional observations from a re-analysis of the deposited data

How the results depend on the processing

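No paired analysis was possible because the replicates were merged before peaks were called, and for the same reason no replicate could be left out. The number of Usp genes with a knockdown peak (2), and with a peak in both lists (2), was 1 when at least 10% of the gene had to be covered, 1 with caller scores of 100 or more, 1 without members that overlap another gene, and 0 with an FDR of 1% or less. With only as many top-scoring control peaks as there are knockdown peaks, 12 Usp genes had a control peak in place of 41, 11 of them broadly used in place of 31 and 0 tissue-restricted in place of 2, 1 had a peak in both lists, and the median control-covered share was 0% in place of 10.4%. The 2 tissue-restricted genes with a control peak became 1 at 10% coverage, and 10 of 23 when the members of uncertain use were added. All alternatives were recomputed over the Usp genes alone. Whether the family stayed above the share of all protein-coding genes at these settings, also at equal peak numbers, was thus not tested. Of 58 recomputed values, 43 stayed within 1.5 times the value reported or, for medians, within its 95% order interval (4.41% to 21.9% for the control-covered share). Some of the 43 could not have moved. The median knockdown-covered share was 0% at every setting, and covered shares do not depend on the rule for a marked gene. Fewer control peaks cannot change the knockdown count. Leaving out Usp6nl, of uncertain use and without a knockdown peak, cannot change the knockdown or class counts. The 43 is thus no measure of stability. The empirical FDR was above 5% for some of the highest-scoring peaks, so that limit, which the authors' BED lists apply, left 40 Usp genes with a control peak and took away the peak of Usp19. The smallest peaks set how little of the mark can be called, so a gene without a peak is not shown to lack it.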

Other observations

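The neighbours of Usp genes were looked up after the coverage values had been seen. Cdca3, a cell-cycle gene 45 bp from Usp5, was covered over 36.0% of its length in knockdown cells and 47.3% in control cells, whereas Usp5 was covered over 0% and 90.8%. The nearest knockdown peak lay 2640 bp from Usp5. Lamb2, 76 bp from Usp19, was covered over 0% in knockdown and 81.7% in control cells, much as Usp19 was (0% and 84.9%). The Usp19 value rests on a single peak with an empirical FDR of 20%, which the authors' BED list leaves out. Peg3, an imprinted gene 96 bp from Usp29, had 0% and 14.8%, and Usp29 had 0% in both. Ddx3y, 12332 bp from Usp9y, had 0% in knockdown and 21.2% in control cells, while Usp9y had no peak in either list. Of the 39 Usp genes with a control peak and no knockdown peak, 2 had a knockdown peak within 10 kb of the gene, Usp5 and Usp6nl, and the median distance to the nearest knockdown peak on the same chromosome was 292.0 kb.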
